A study of Caenorhabditis elegans with 2 samples.

Results

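The genes described here build and anchor the contractile apparatus of muscle in Caenorhabditis elegans: 30 genes of the body wall sarcomere and its attachments, and 7 genes of pharyngeal muscle. They were chosen by name, as genes of a fixed list with a probe set that the platform annotation gives to no other gene. All 37 were found among the 17118 genes with such a probe set. Messenger RNA was measured in total RNA of whole nematodes on Affymetrix arrays, on which a set of short oligonucleotides reads each transcript. In the imp-2 RNAi group the animals ate the Escherichia coli strain HT115 making double-stranded RNA for imp-2, a presenilin-related intramembrane protease gene. In the GFP RNAi group, the control, the same bacterial strain made double-stranded RNA for green fluorescent protein, so that both groups received an RNA interference trigger. Each group holds 1 array. No test of a difference was therefore possible and no p-value is given; precision is limited by the array number. Of strain, stage, age and the number of animals pooled, none is stated in the sources used here. The tissue label of both samples adds a mammalian brain region, which nematodes lack, to the whole animal.

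Nematode body wall muscle is obliquely striated. Thick filaments of myosin wound on a paramyosin core interdigitate with actin thin filaments, whose tropomyosin and troponin make contraction depend on calcium. Dense bodies and M-lines tie the filaments to the cell membrane through integrins, and these attachments carry force across the epidermis to the cuticle. The pharynx, the feeding pump, is a separate muscle with its own myosin heavy chains and its own troponins. Several body wall genes also act elsewhere: the integrin gene pat-3 in the gonad, for example, and the tropomyosin gene lev-11 in the pharynx.

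Values are intensities on a linear scale, and a log2 ratio is that of the array labelled imp-2 RNAi to that labelled GFP RNAi, centred on the median of all expressed genes. Where a gene had several probe sets, the brightest was used. Genes with a mean log2 intensity above the median of all non-control probe sets are called expressed here, and there were 8553 of them. Expressed probe sets of the same gene differed by a root mean square of 0.53 on the log2 scale. Divided by the square root of 2, this gives a spread per set of 0.37 (1.29-fold), called the probe set spread, which lies within this pair of arrays and says nothing about the spread between cultures. The targeted gene does not settle the labels, since its probe sets pointed in opposite directions: they read 1754 and 2517 on the imp-2-labelled array against 2318 and 510 on the GFP-labelled array. All directions below are therefore directions between labels.

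Muscle genes differed little between the arrays. Of the 37 genes, 36 counted as expressed, and 35 of these lay within 2-fold. Only the troponin I gene tni-1 passed 2-fold, being 2.17-fold brighter on the imp-2-labelled array, and none reached 2-fold in the other direction. Among all 8553 expressed genes, 9.72% reached 2-fold higher on that array and 2.27% reached 2-fold lower. The median log2 ratio was 0.01 over the 30 body wall genes and 0.02 over the 6 expressed pharyngeal genes, beside 0 over all expressed genes, where the centring puts it. In RNA of whole animals, fewer muscle cells and less RNA per muscle cell cannot be told apart.

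The sizes of the differences were also small. The median absolute log2 ratio was 0.19 over the 36 expressed muscle genes and 0.33 over all expressed genes. A total of 30 of the 36, or 83.3%, lay within the probe set spread of 0.37, as did 54.4% of all expressed genes. Brightness goes with this measure: across all expressed genes the absolute log2 ratio and the mean log2 intensity had a Spearman coefficient of −0.24 (Pearson r −0.22), a description across genes that share both arrays. On that scale 18 of the muscle genes fell in the top 3 of 10 equal brightness bins of expressed genes. None of those 18 passed 2-fold. In those bins 2.81% of all 2566 genes reached 2-fold higher and 1.91% reached 2-fold lower, and their median absolute log2 ratio was 0.24 against 0.16 for the 18 muscle genes. How far brightness accounts for the small differences was not tested.

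**Figure D1:**
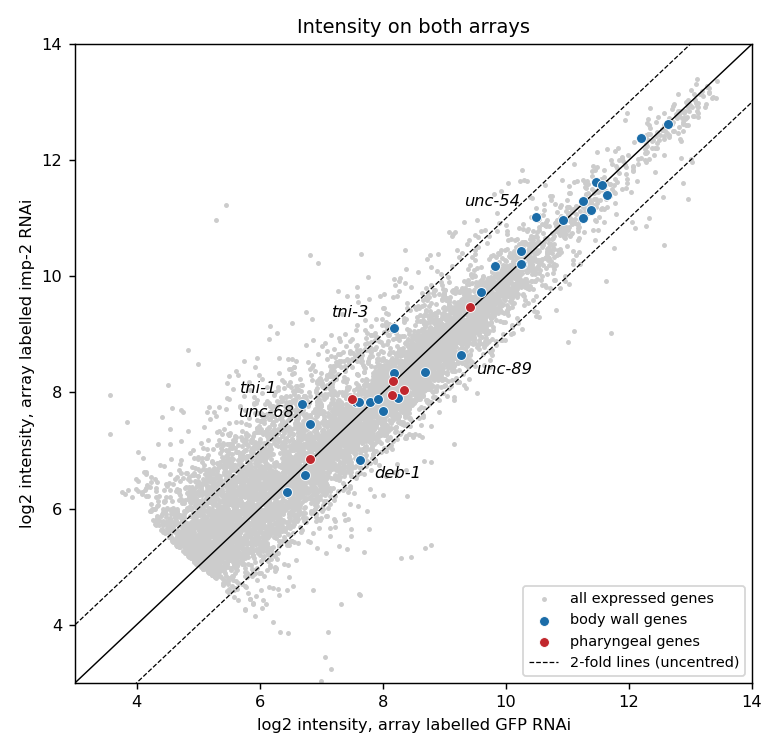
Log2 intensity of each expressed gene on the arrays labelled GFP RNAi (horizontal) and imp-2 RNAi (vertical), with all 8553 expressed genes in grey, body wall muscle genes in blue and pharyngeal muscle genes in red. The solid line marks equal intensity and the dashed lines a 2-fold difference before centring; tni-1 is the muscle gene outside them, and tni-3, deb-1, unc-89, unc-68 and unc-54 lie nearest to them.

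All 7 thick filament genes lay within 1.5-fold, with a median log2 ratio of 0.15. Of all 8553 expressed genes, 6104 lay within 1.5-fold. The major body wall myosin heavy chain gene unc-54 read 2086 on the imp-2-labelled array and 1440 on the GFP-labelled array, which is 1.44-fold higher (log2 ratio 0.52) and the one thick filament gene beyond the probe set spread. The gene myo-3, whose myosin occupies the centre of the filament, read 229 and 190, a log2 ratio of 0.26. Both genes were thus brighter on the imp-2-labelled array, myo-3 by less than the spread. Each has 1 probe set, with a suffix for sets that may match several transcripts, so no second reading of either was at hand.

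Paramyosin, the core of the thick filament, is encoded by unc-15, and its 3 probe sets read 3172, 1528 and 1232 on the imp-2-labelled array against 2833, 1178 and 1148 on the GFP-labelled array. All 3 were slightly brighter on the imp-2-labelled array, with log2 ratios of 0.15, 0.36 and 0.09. The myosin chaperone gene unc-45, which folds the myosin head, leaned the other way at 204 against 256 (log2 ratio −0.34). Its second probe set, at 15.3 and 5.02, lay below the median intensity of both arrays, the limit under which values were not read here. Averaged with the dim set at its measured values the log2 ratio became 0.64, and with that set raised to the limit first it was −0.05.

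The myosin light chain genes were level. The regulatory light chain genes mlc-1 and mlc-2 lie next to each other on the X chromosome and encode near copies of a protein, so their probe sets are not told apart with certainty. The mlc-1 set read 1389 on the imp-2-labelled array and 1220 on the GFP-labelled array. The brighter mlc-2 set read 6267 and 6331, and the other 2430 and 2181. A set that the annotation gives to both genes read 2695 and 2367, and log2 ratios over these 4 sets ran from −0.03 to 0.18. The essential light chain gene mlc-3 read 1192 and 1228 on its brighter set (log2 ratio −0.05) and 1133 and 973 on the other (0.21).

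The giant proteins that span or cross-link the sarcomere gave mixed readings. Twitchin, a titin-like kinase of the thick filament encoded by unc-22, read 241 on the imp-2-labelled array and 303 on the GFP-labelled array, a log2 ratio of −0.35, and 45.3 against 49.4 on its dimmer set. The obscurin homologue gene unc-89, which organises the M-line, was lower: 398 against 619, 1.57-fold lower on the imp-2-labelled array (log2 ratio −0.65). A second unc-89 set gave −0.42 and the remaining expressed set 0.32, a range of 0.97 that was the widest among the 37 genes. For the titin-related gene ttn-1 the brightest set was level at 228 and 221, another read 104 against 62 (log2 ratio 0.74), and the other 4 sets lay below the median intensity of both arrays. Readings of unc-89 and ttn-1 therefore depended on which probe set was taken, whereas both unc-22 sets were lower on the imp-2-labelled array (−0.35 and −0.14).

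Among the thin filament genes 9 of 10 lay within 2-fold, beside 7528 of all 8553 expressed genes. Both thin filament genes furthest from 0 encode troponin I, the inhibitory subunit that holds actin and myosin apart until calcium binds. The tni-1 set read 224 on the imp-2-labelled array and 102 on the GFP-labelled array, a log2 ratio of 1.12. The brighter tni-3 set read 554 and 289, which is 1.90-fold higher (log2 ratio 0.93), and the other tni-3 set read 184 and 128 (0.51). All 3 sets were brighter on the imp-2-labelled array by more than the probe set spread, and the suffix of each marks possible matches to several transcripts, so the paralogs are not told apart with certainty. The other troponin I genes were level: unc-27, the main body wall form, read 2505 and 2430 (log2 ratio 0.03), and the pharyngeal form tni-4 read 294 and 287 (0.02). Against the whole array tni-1 was not extreme, since it stood at rank 648 from the highest ratio among 8553 expressed genes and tni-3 at rank 940. Under quantile normalization and intensity-dependent centring tni-3 also passed 2-fold, with log2 ratios of 1.02 and 1.04, and without sets that may match several transcripts neither gene could be read.

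The partners of troponin I in the troponin complex did not share that difference. Troponin T, which binds the complex to tropomyosin, is encoded in the body wall by mup-2 and tnt-2. The former read 1190 on the imp-2-labelled array and 1215 on the GFP-labelled array, and the latter 1994 and 1944, so that both log2 ratios lay between −0.04 and 0.03. Troponin C, the calcium sensor, is encoded by pat-10, whose sets read 5318 and 3252 against 4667 and 3255 (log2 ratios 0.18 and −0.01). Body wall troponin T and C were thus level within the probe set spread.

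Tropomyosin and the actin-binding proteins of the thin filament leaned slightly lower or were level. The tropomyosin gene lev-11 read 2269 on the imp-2-labelled array and 2669 on the GFP-labelled array (log2 ratio −0.24). Its 6 expressed probe sets ran from −0.60 to 0.10, with 158 against 238 on the lowest. The cofilin gene unc-60, whose transcripts make a muscle and a non-muscle form of this actin-severing protein, read 2699 and 3184 (log2 ratio −0.25), and its 5 sets ran from −0.31 to 0.04. The calponin-like genes unc-87, which bundles actin, and clik-1 had log2 ratios of −0.26 (2051 against 2432) and −0.01 (3032 against 3038), and the other unc-87 sets gave 0.01 and −0.02. None of these 4 genes differed by more than the spread on its brightest set.

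Attachment genes, which couple the filaments to the membrane, all lay within 2-fold, and 8 of 9 lay within 1.5-fold with a list median of −0.04. Of all 8553 expressed genes, 7528 lay within 2-fold and 6104 within 1.5-fold. The integrin subunit genes pat-2 (alpha) and pat-3 (beta) read 96 and 850 on the imp-2-labelled array against 107 and 770 on the GFP-labelled array, log2 ratios of −0.16 and 0.13. On their other sets the signs turned, to 0.31 for pat-2 and −0.32 for pat-3. The integrin-linked kinase gene pat-4 read 77.8 and 86.6 (log2 ratio −0.17), with 72.0 and 71.6 on its other set, and the parvin gene pat-6 read 236 and 242 (−0.04). The kindlin gene unc-112 read 228 and 196 (0.21), with 211 and 149 on its other set (0.49), and the PINCH gene unc-97, a LIM-domain adaptor, read 325 and 412 (−0.35), with 104 and 102 on its other set. No common direction showed in the 6 genes of the integrin complex, of which 2 had ratios above 0.

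The lowest ratio of the 37 genes belonged to deb-1, which encodes vinculin, an actin anchor of the dense body. It read 115 on the imp-2-labelled array and 198 on the GFP-labelled array, which is 1.74-fold lower (log2 ratio −0.80). Its other probe set, of similar brightness, read 104 and 97 (log2 ratio 0.09), so the difference rests on 1 of 2 sets. The alpha-actinin gene atn-1, the cross-linker of the dense body, read 321 and 291 (log2 ratio 0.13). The gene dim-1, which encodes an immunoglobulin-domain protein of the attachment region, read 1160 and 908 on the brighter set and 994 and 835 on the other, log2 ratios of 0.34 and 0.24. Among these dense body genes only deb-1 lay beyond the probe set spread.

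Calcium release was represented by unc-68, the ryanodine receptor gene of the sarcoplasmic reticulum. Its brightest set read 175 on the imp-2-labelled array and 113 on the GFP-labelled array, which is 1.53-fold higher (log2 ratio 0.62). A second set was 1.21-fold higher (0.28), and the other one lay below the median intensity of the imp-2 array. With all 3 sets averaged at their measured values the log2 ratio was 0.05, and with dim values raised to the limit first it was 0.30.

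**Figure D2:**
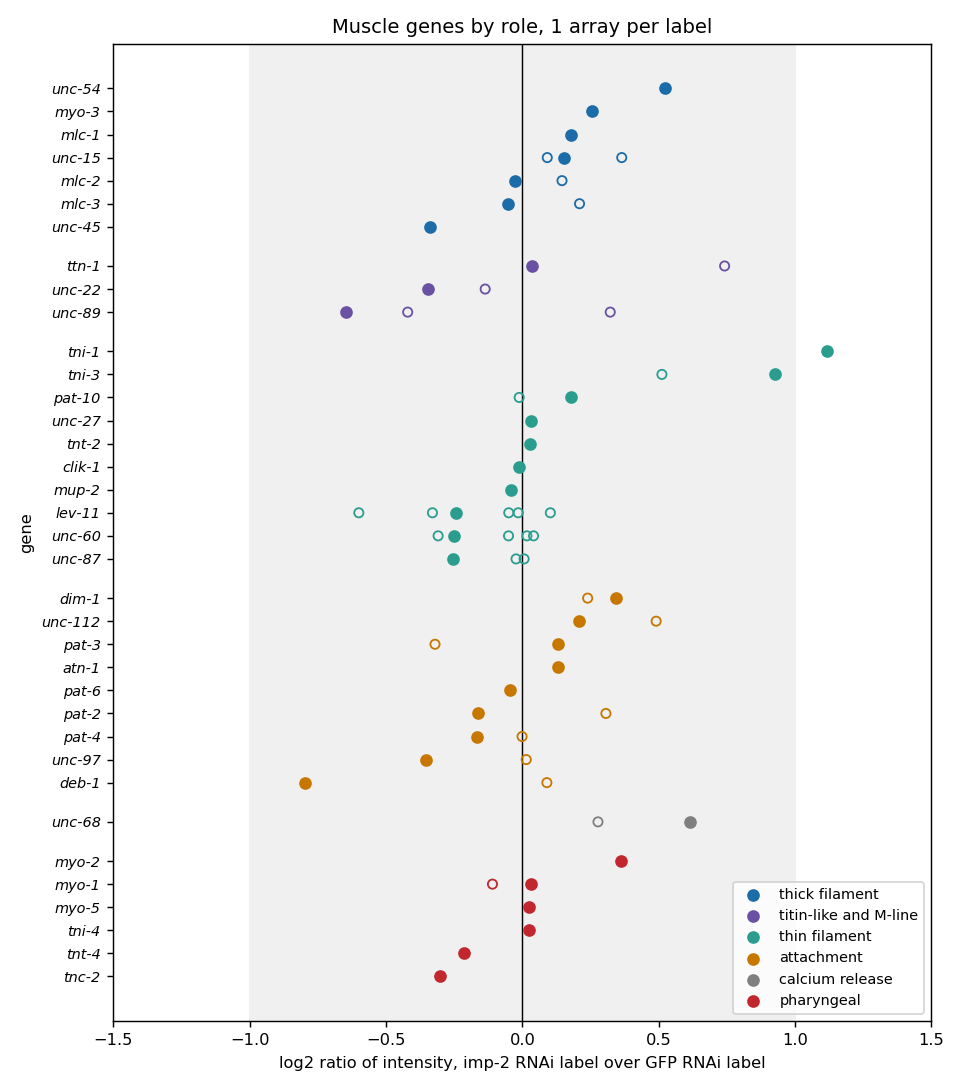
Log2 ratio of intensity (imp-2 RNAi to GFP RNAi labels) for the 36 expressed muscle genes, grouped and coloured by role, with a filled point for the brightest probe set of each gene and open points for its other expressed sets; the grey band marks less than 2-fold. tni-1 is the point outside the band, and tni-3 (0.93) and deb-1 (−0.80) are the next furthest from 0.

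The 6 expressed pharyngeal muscle genes had log2 ratios from −0.30 to 0.36. The pharyngeal myosin heavy chain gene myo-1 read 706 on the imp-2-labelled array and 685 on the GFP-labelled array (log2 ratio 0.03), with 299 and 321 on its other set (−0.11). The other pharyngeal heavy chain genes, myo-2 and myo-5, read 236 and 115 against 182 and 112.4, log2 ratios of 0.36 and 0.02. Every pharyngeal gene that counted as expressed lay inside the probe set spread, as did 54.4% of all expressed genes. The troponin C gene tnc-2 read 265 and 324 (−0.30) and the troponin T gene tnt-4 read 247 and 285 (−0.22), the lowest ratios of the 6. The homeobox gene ceh-22, an activator of myo-2 in pharyngeal muscle, lay below the median intensity of both arrays on both probe sets (18 and 15.6 on the brighter), so no ratio is given.

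Set side by side, the medians of the body wall and pharyngeal genes differed by −0.02 on the log2 scale. The body wall ratios ran from −0.80 to 1.12 and enclosed the pharyngeal range of −0.30 to 0.36. Without probe sets that may match several transcripts, 15 body wall and 3 pharyngeal genes were left, and the medians differed by 0.25. The 5 myosin heavy chain genes had ratios above 0 in both muscles (0.02 to 0.52), although myo-5 turned to −0.09 under quantile normalization and −0.07 with intensity-dependent centring, and myo-1 turned to −0.03 when its probe sets were averaged. At a threshold of 1.5-fold, 3 of the 30 body wall genes were higher (tni-1, tni-3 and unc-68) and 2 were lower (unc-89 and deb-1), and 0 of the 6 pharyngeal genes passed in either direction. Over all expressed genes 19.03% reached 1.5-fold higher and 9.599% reached 1.5-fold lower.

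Reading every probe set separately gave the same picture. The 37 genes had 77 probe sets, of which 66 were expressed, and on the imp-2-labelled array 1 of the 66 reached 2-fold higher and 0 reached 2-fold lower. Over all 10677 expressed probe sets with 1 gene, 8.69% reached 2-fold higher and 2.51% reached 2-fold lower. Of 20 muscle genes with several expressed sets, 8 had ratios of 1 sign and 12 had ratios of both signs. For those 12 the sign of the ratio depended on the probe set read. Sets of the same muscle gene had a probe set spread of 0.26, against 0.37 over all genes, and 53.1% of their 49 pairs had the same sign, against 66.7% of 2489 pairs over all genes. The pairs are not spread evenly over the muscle genes, since lev-11 with 6 expressed sets and unc-60 with 5 gave the most.

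**Figure D3:**
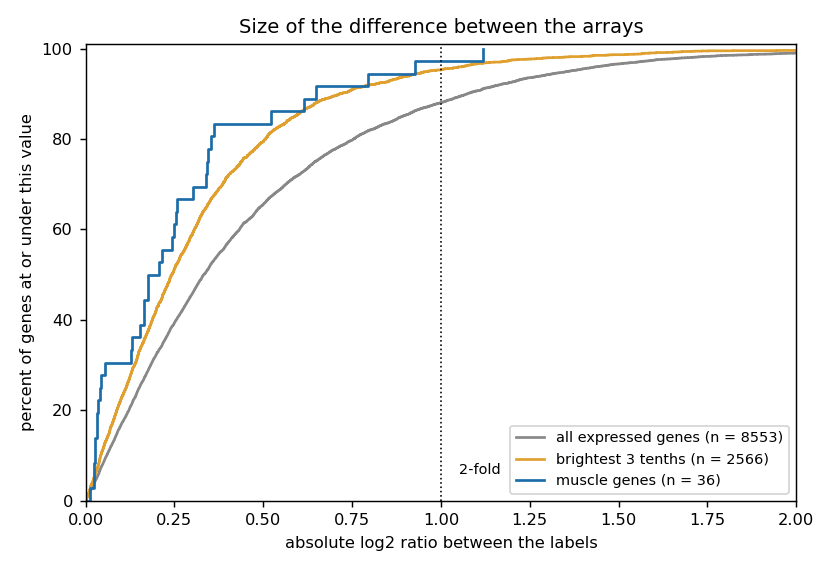
Percent of genes (vertical) whose absolute log2 ratio between the labels is at or under the value on the horizontal axis, for all expressed genes, for those in the top 3 of 10 brightness bins and for the 36 expressed muscle genes; the dotted line marks 2-fold. The muscle genes have a median of 0.19, all expressed genes one of 0.33, and 35 of the 36 muscle genes lie left of the dotted line.

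Other genes of muscle were listed by role. Of 71 such genes, 65 had a probe set annotated to them alone and 44 were expressed, with a median log2 ratio of 0.11. On the imp-2-labelled array 1 of the 44 reached 2-fold higher and 0 reached 2-fold lower, beside 9.72% and 2.27% of all expressed genes. At 1.5-fold 4 were higher and 6 lower, beside 19.03% and 9.599%. Among the higher ones unc-96 lay below the median intensity of the GFP array. Among the lower ones unc-98 and tbx-2 lay below that of the imp-2 array. Each of these genes counted as expressed through the array where it was brighter. All 9 expressed actin and further thin filament genes lay within 1.5-fold, with a median of 0.24. In that list the gelsolin-like gene gsnl-1 had a log2 ratio of 0.49 and unc-78, which helps cofilin take actin filaments apart, one of 0.47. The capping protein subunit genes cap-1 and cap-2 had log2 ratios of 0.35 and 0.27, with −0.25 and 0.36 on their other sets. The 3 probe sets that the annotation gives to several actin genes together gave log2 ratios of −0.34, −0.41 and −0.25, while the sets of act-3 and act-4 alone gave 0.15 and −0.08.

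Further attachment and M-line genes stood on both sides of 0. Of 16 expressed, 1 was at least 2-fold higher: unc-23, a BAG-domain co-chaperone gene needed to keep muscle attached to the body wall, read 218 on the imp-2-labelled array and 97.4 on the GFP-labelled array (2.23-fold, log2 ratio 1.15), and its other set gave 0.38. The kettin gene ketn-1, which encodes an actin-binding immunoglobulin-repeat protein near the dense bodies, read 885 and 1689, 1.92-fold lower (log2 ratio −0.94), with −0.78 on its other set. The LIM-domain gene lim-9 was 1.86-fold lower (log2 ratio −0.89), with −0.57 and −0.35 on its other expressed sets. For unc-98, a zinc finger gene of the M-line, the imp-2 array lay below its median intensity, and the gene was at least 1.68-fold lower. The list median was 0.07.

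The remaining muscle lists held few expressed genes. On their brightest sets all 7 expressed membrane and calcium genes lay within 1.5-fold, with a median of 0.23, beside 6104 of all 8553 expressed genes. One of them, sca-1, had a log2 ratio of 0.07 on that set, and its other sets gave −0.15, −0.76 and −0.77. The sets at −0.76 and −0.77 were 1.69-fold and 1.70-fold lower on the imp-2-labelled array. The calcium channel genes egl-19 and ccb-1 had log2 ratios of −0.31 and 0.26, the calsequestrin gene csq-1 one of 0.31 and the potassium channel gene twk-18 one of 0.28, with −0.27 on its other set. Of 8 neuromuscular receptor genes 2 were expressed, the GABA receptor gene unc-49 (log2 ratio −0.63, and 0.07 on its other expressed set) and lev-10, which gathers acetylcholine receptors (0.41, and −0.57 on its other expressed set). Of 4 myogenic transcription factor genes only pat-9, a zinc finger gene, was expressed (64.3 on the imp-2-labelled array and 33.9 on the GFP-labelled array, log2 ratio 0.91). The GFP value was close to that array's median intensity of 30.1, and the other pat-9 set lay below the median intensity of both arrays. The MyoD homologue gene hlh-1 read 7.73 and 7.30, hnd-1 read 24.4 and 13.9 and unc-120 read 29.6 and 32. For hlh-1 and hnd-1, below the median intensity of both arrays, no ratio is given.

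Of 6 other pharynx genes with a probe set, 3 were expressed: the FoxA gene pha-4, which specifies the pharynx (log2 ratio 0.48, and 0.51 on its other expressed set), eat-20 (−0.72) and the T-box gene tbx-2, which was at least 1.77-fold lower on the imp-2-labelled array. The other eat-20 set lay below the median intensity of both arrays. All 6 non-muscle myosin genes lay within 1.5-fold, with a median of −0.26, beside 6104 of all 8553 expressed genes within 1.5-fold. No gene of these lists reached 2-fold lower as measured here, but tbx-2 did under other settings (−1.19 without a floor on dim values). The brighter tbx-2 set read 27.3 on the imp-2-labelled array, below that array's median intensity, and 62.1 on the GFP-labelled array. The gene therefore counted as expressed through the GFP-labelled array, and its other set lay below the median intensity of both arrays.

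Markers of other tissues gave larger differences in the same arrays for the intestine. Of 7 expressed intestine markers 4 reached 2-fold higher on the imp-2-labelled array and none reached 2-fold lower, beside 9.72% and 2.27% of all expressed genes. For 1 of the 4, elt-7, the GFP array lay below its median intensity, so the gene counted as expressed through the other array and was at least 2.24-fold higher. The median log2 ratio of the 7 was 1.09 and the summed intensity over 8 genes was 7107 against 5593; elt-2, which defines that tissue, lay below the median intensity of both arrays. The esterase gene ges-1 was 2.72-fold higher and the cathepsin gene cpr-1 2.13-fold. The medians were 0.12 over 6 epidermis markers (1 higher, rol-6, also below the median intensity of the GFP array, summed intensity over 7 genes 2088 against 1987), −0.32 over 6 neuron markers (1 higher, 1962 against 2043 over 8 genes) and −0.14 over 6 germline markers (none past 2-fold, 6438 against 7616). The part of these tissues in the muscle values was not tested.

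**Figure D4:**
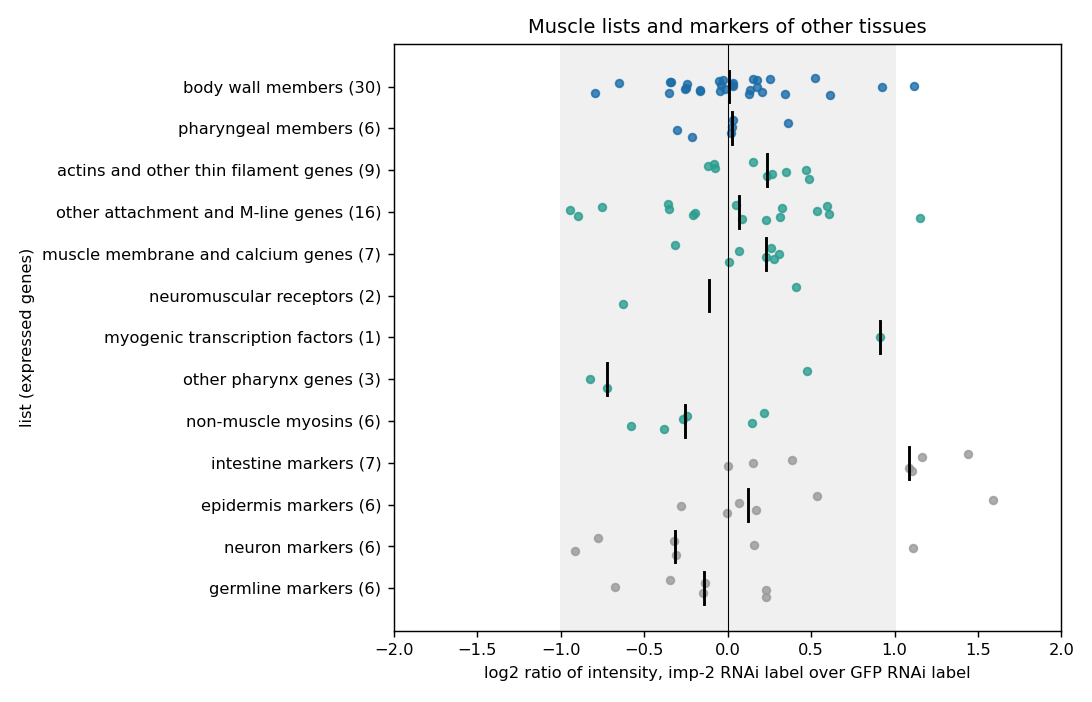
Log2 ratio of intensity (imp-2 RNAi to GFP RNAi labels, horizontal) for each expressed gene of the muscle lists and of the markers of other tissues, with the number of expressed genes in brackets; the black bar is the list's median and the grey band marks less than 2-fold. Body wall and pharyngeal genes centre near 0 (0.01 and 0.02), and the intestine markers have a median of 1.09.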

How the data were processed

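Whole nematodes fed double-stranded RNA for imp-2 or GFP were read on 2 arrays, 1 per group, grouped by the label text naming the fed RNA. The deposited values are intensities, 1 per probe set; no source used here states the summarisation, background correction or scaling. Trimmed by 2% per end, both arrays had a mean of 150.04. The platform's annotation gives 1 gene to 20766 of the 22548 non-control probe sets and several to 887. Names were matched through the gene table of the WBcel235 assembly.

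Intensities were converted to log2. Values under an array's median (35.3 and 30.1 on the imp-2 and GFP arrays) were raised to it, which makes folds against them lower bounds. Ratios were centred on the median of expressed genes, which moved them by 0.01, and counted at 2-fold. Genes named are all listed members and, of each other list, up to 4 with the largest absolute ratio. The actin sets, act-3, act-4, sca-1 and elt-2 were added after their values were seen. Single genes of the non-muscle myosin list are not reported here. Members and lists were chosen with earlier results of these data known. The steps were tested on simulated data. Python 3.11.15, pandas 2.3.3, scipy 1.17.1 and statsmodels 0.14.6 were used, the last for intensity-dependent centring (lowess, span 0.3). Protein sequences and gene lengths were not used here.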

Additional observations from a re-analysis of the deposited data

How the results depend on the processing

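The counts and medians were recomputed under 11 alternatives, 1 of them chosen after seeing the data (probe sets averaged with each raised to the floor first). Settings that only change which genes are counted (the filter on dim genes, the 75th percentile) left every member ratio as it was. Leaving out the centring or changing the floor moved every member ratio by the same small amount. Of 334 recomputed member ratios, these included, 328 moved by less than the probe set spread, which overstates their stability. The 6 others were unc-45 (0.64), deb-1 (−0.34) and unc-68 (0.05) with probe sets averaged at their measured values, unc-89 (−0.10) and deb-1 (−0.35) with each raised to the floor first, and pat-2 (0.30) without sets that may match several transcripts. Body wall genes at least 2-fold higher numbered 2 under quantile normalization and under intensity-dependent centring, where tni-3 joined tni-1 (1.02 and 1.04), and 0 both above the 75th percentile of brightness and without sets that may match several transcripts, settings that leave tni-1 out. Their median was 0.10 and 0.078 under those scalings. Without sets that may match several transcripts the pharyngeal median was −0.23 over 3 genes, and the body wall median lay 0.25 above it. At 1.5-fold, body wall counts were 3 higher and 2 lower. Of the other muscle genes, 0 were 2-fold higher with sets averaged either way (median 0.057 with each raised first) or above the 75th percentile, and at 1.5-fold 4 were higher and 6 lower. Lower ones numbered 1 under quantile normalization, without the floor and with the floor at the 25th percentile, and 2 with intensity-dependent centring (tbx-2, and unc-98 in the last). Over all genes, 198 were higher and 83 lower above the 75th percentile, and 1628 and 821 at 1.5-fold. The cause of the shifts under the scalings was not tested. No paired analysis was possible because each group has 1 array.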

Other observations

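Genes of immunoglobulin-domain proteins in and around the muscle attachments, grouped after their values were seen, did not all lie on the same side. Of these, unc-22, unc-89, ketn-1 and the perlecan gene unc-52, a basement membrane component beneath muscle, had 10 expressed probe sets, of which 9 were lower on the imp-2-labelled array. The 3 unc-52 sets gave log2 ratios of −0.36, −0.62 and −0.67. The other 2 genes of this group, ttn-1 and dim-1, were above 0 on all 4 expressed sets (0.03 to 0.74 for ttn-1). These genes were picked for how they read, so the split is a description of these arrays.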
